A study of Mus musculus with 18 samples.

Results

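Mouse kidney 14 days after folic acid was compared directly with mouse kidney 2 days after folic acid, with 3 libraries in each group, which are 6 of the 18 libraries collected. Both groups came from male Balb/c mice given a single intraperitoneal dose of 250 mg/kg folic acid in 0.3 M sodium bicarbonate. A further 3 libraries came from untreated Balb/c kidney and serve as a reference. The remaining 9 libraries, from days 1, 3 and 7, entered the low-count filter, the scaling and the estimate of spread. A few of their levels are given below. The untreated mice are labelled as having had no treatment, so effects of the bicarbonate vehicle or of the injection cannot be told apart from those of folic acid in any comparison with them. The day 14 and day 2 groups share dose, vehicle and route. The labels give no animal identity, so the spread behind each p-value is that between libraries, which may be partly technical. RNA was taken from frozen whole kidney tissue, 10 ng of total RNA per library.

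High doses of folic acid crystallise in the tubule lumen and are toxic to tubule cells, and the model is used for acute kidney injury with incomplete repair. Injured proximal tubule cells lose their transporters and enzymes, switch on injury genes such as Havcr1 (kidney injury molecule 1) and re-enter the cell cycle to replace lost neighbours. Repair may be followed by a lasting inflammatory and fibrotic phase, with macrophages and matrix-producing fibroblasts in the space between tubules.

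Levels are given as CPM (reads of a gene per 1000000 reads in the genes tested, after TMM scaling), in the order replicate 1, 2 and 3. Changes are given as log2 fold changes of day 14 over day 2 with their standard error (SE). The p-values are those of edgeR's quasi-likelihood test, adjusted by the Benjamini-Hochberg method over all 16824 genes tested, and a gene is said to have risen or fallen only where the adjusted p was under 0.05. Because whole tissue was sequenced, fewer cells of a type and less RNA per cell cannot be told apart for any gene below.

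The summed level of 36 tubular injury genes averaged 23740.1 ± 8942 CPM (SD, n = 3) at day 2 and 17588 ± 2393 a day earlier, with overlapping libraries. It was 9561 ± 2085 at day 3, 5610.1 ± 1504 at day 7 and 1939.9 ± 1285 at day 14. Spp1 made up most of this sum. Havcr1 itself was higher at day 1, at 2338 ± 97.1 CPM, than at day 2, at 890.3 ± 207, with no overlap, so day 2 was not the peak of that gene. Mki67, a marker of dividing cells, had its highest mean at day 2, 78.3 ± 25.7 CPM against 12.2 ± 3.89 at day 1 and 44.5 ± 9.46 at day 3.

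The day 2 libraries held 45.5, 8.68 and 24.6 M reads in genes and the day 14 libraries 22.2, 28.6 and 22.3 M (M stands for 1000000). Mitochondrial genes took 65.04% ± 2.103 of these reads at day 2 and 70.3% ± 2.83 at day 14 (exact permutation test, two-sided, p = 0.1, the smallest that 3 against 3 libraries allow). Kidney markers were present in all 9 libraries, with a lowest value of 506 CPM for Lrp2, 57.0 for Slc34a1, 108 for Umod, 82.5 for Slc12a3 and 6.39 for Aqp2. Over all genes tested, the root mean square log2 distance was 1.04 to 1.21 between day 14 libraries and 1.13 to 1.59 between day 2 libraries, and it ran from 1.34 to 1.86 between the groups. Day 14 libraries lay 1.16 to 1.44 from the untreated ones. Replicate 2 of day 2, the shallowest library, and replicate 3 of day 14, the day 14 library with the highest injury sum, stood apart within their groups, and results that rest on them are given with and without them. Replicate 2 of day 2 also held the highest summed level of neutrophil genes, 60.3 CPM against 6.42 and 7.88 in the other day 2 libraries and 9.85 to 16.3 at day 14, with none of 6 tested genes passing. The adrenal and fat genes summed to 8.58, 63.5 and 57.6 CPM at day 2 and 13.7, 110.0 and 16.6 at day 14, and none of 9 tested passed. The part of such cells in the results was not tested.

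Injury and cell division genes fell: 19 of 36 tubular injury genes and 28 of 74 mitosis genes were lower at day 14 than at day 2. Genes of working tubule and vessels rose, with 29 of 55 proximal enzymes, 17 of 36 loop and distal tubule genes and 15 of 39 endothelial genes higher at day 14. Matrix and macrophage genes rose as well, 27 of 66 and 18 of 41, and 24 and 15 of these lists were also above untreated kidney at day 14. Over all genes, 788 rose and 798 fell, which is 4.68% and 4.74% of the genes tested and 9.43% in either direction. The median log2 fold change was 0.03. Of the 1586 genes that passed, 1491 differed by at least 2-fold and 873 by at least 4-fold, and 1418 had no overlap between the 3 and 3 libraries. For each gene named below as risen or fallen the groups did not overlap, unless an overlap is stated. The same fit found 1210 genes higher and 1006 lower at day 2 than in untreated kidney, and 208 higher and 52 lower at day 14 than in untreated kidney. With scaling by library totals alone the split was 705 higher and 486 lower for day 14 against day 2, 1450 higher and 651 lower for day 2 against untreated, and 417 higher and 18 lower for day 14 against untreated. Without replicate 2 of day 2 the test of day 14 against day 2 passed 911 genes, 807 of them among the 1586. Without replicate 3 of day 14 it passed 1191, of which 995 were among the 1586, and without both libraries 859, of which 720 were. Leaving out replicate 1 or 2 of day 14 left 888 and 865 genes. A fit to the 6 libraries alone, which estimates the spread from fewer samples, passed 325 genes, 321 of them among the 1586. The comparison of day 14 with untreated kidney leaned on replicate 3 of day 14, without which 103 genes were higher and 9 lower, and on each untreated library, without which 106 to 158 genes passed in all.

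**Figure D1:**
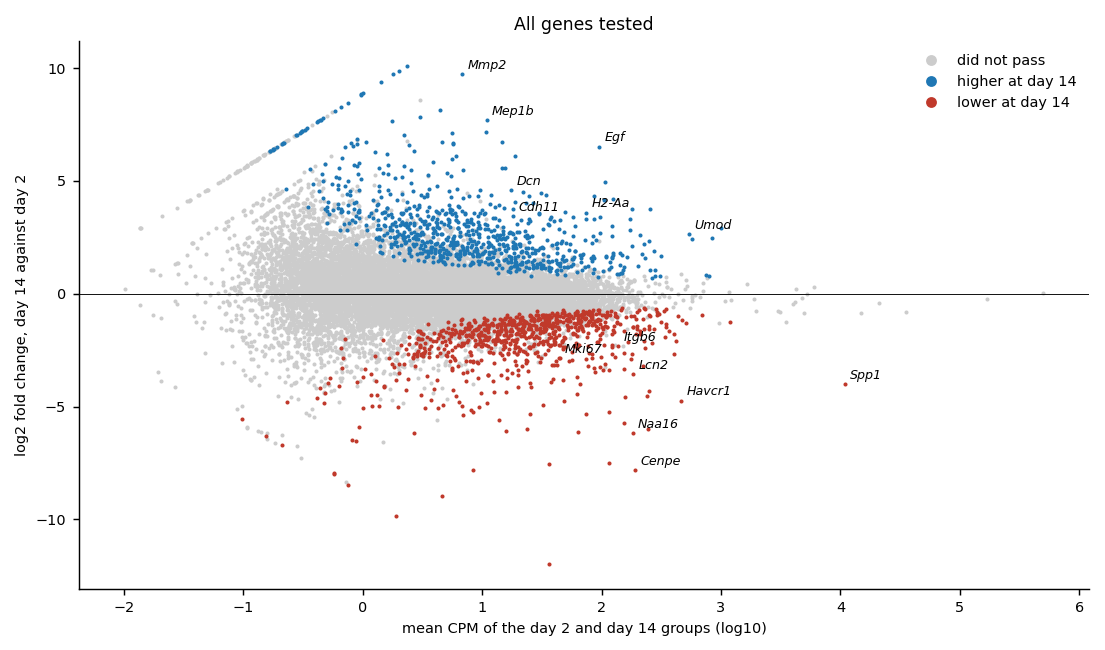
Log2 fold change of day 14 against day 2 (vertical axis) by mean CPM of both groups (horizontal axis, log10), 1 point for each of the 16824 genes tested. Blue points are the 788 genes that rose and red points the 798 that fell. Mep1b, Egf and Mmp2 lie among the largest rises and Cenpe and Naa16 among the largest falls.

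Genes of tubular injury fell. Of the 36 tested, 19 fell and none rose between day 2 and day 14 (4.74% of all genes fell), 32 had a negative log2 fold change, and the median was -1.52. Against untreated kidney, 31 of the 36 were higher at day 2 (7.19% of all genes were) and 12 were still higher at day 14 (1.24% of all genes were). Without replicate 2 of day 2, 16 fell, and without replicate 3 of day 14, 19 did. The summed level of the list was 21101, 33705 and 16414 CPM at day 2, 1318, 1084 and 3418 at day 14 and 424, 537 and 498 in untreated kidney, so replicate 3 of day 14 held the highest residue.

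Havcr1, a phosphatidylserine receptor with which injured proximal cells clear debris, read 902, 678 and 1091 CPM at day 2, 32.0, 25.2 and 42.6 at day 14 and 10.4, 23.3 and 15.5 in untreated kidney. Every day 14 library was far under the lowest day 2 library (log2 fold change -4.74, SE 0.37, adjusted p = 1.54e-06), and the difference from untreated did not pass (adjusted p = 0.115). Spp1, which encodes the secreted phosphoprotein osteopontin, read 17838, 29626 and 13766 CPM at day 2 and 766, 526 and 2514 at day 14, with 98.4, 131 and 121 in untreated kidney. It fell (log2 fold change -4.01, SE 0.46, adjusted p = 5.63e-05; -4.98 without replicate 3 of day 14) and was still above untreated in all 3 libraries (log2 fold change 3.44, SE 0.45, adjusted p = 0.000451). Lcn2, the iron-siderophore binding protein NGAL of stressed distal tubule and neutrophils, read 259, 680.4 and 81.7 CPM at day 2, 12.8, 9.002 and 64.97 at day 14 and 0.163, 1.26 and 0.376 in untreated kidney. The spread was wide at both times and the groups came close without overlap: the highest day 14 library was replicate 3 and the lowest day 2 library was also replicate 3. Its log2 fold change was -3.56 (SE 0.79, adjusted p = 0.00937), -2.56 without replicate 2 of day 2 and -4.96 without replicate 3 of day 14, and day 14 stayed above untreated (log2 fold change 5.41, adjusted p = 0.00399).

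Clu, the secreted chaperone clusterin, showed tighter libraries, at 772, 927 and 382 CPM at day 2, 95.4, 94.6 and 137 at day 14 and 22.1, 24.3 and 18.4 untreated (log2 fold change -2.67, SE 0.30, adjusted p = 5.52e-05). Sox9, a transcription factor of regenerating tubule cells, read 16, 14.4 and 10.1 CPM at day 2 and 0.997, 1.14 and 4.52 at day 14 (log2 fold change -2.60, SE 0.61, adjusted p = 0.0119). It was near 0 in untreated kidney, at 0.435, 0.119 and 0.251. The call for Sox9 was lost without replicates 1 or 2 of day 14 (adjusted p = 0.0585 and 0.0596), and its log2 fold change was -3.65 without replicate 3 of day 14. Gdf15, a stress-induced cytokine of the TGF-beta family, and Cdkn1a, which encodes the cell cycle inhibitor p21, overlapped untreated kidney at day 14. Gdf15 read 12.6, 16.1 and 8.03 CPM at day 2 and 0.0434, 0.608 and 0.652 at day 14 (log2 fold change -4.79, SE 0.70, adjusted p = 0.000415), with 0.489, 0.880 and 0.438 untreated. Cdkn1a read 8.58, 8.28 and 52.8 CPM at day 2, 1.13, 1.22 and 2.45 at day 14 and 6.52, 1.83 and 1.38 untreated (log2 fold change -3.87, SE 0.75, adjusted p = 0.00349). The third day 2 library of Cdkn1a was far above the others, and without it the log2 fold change was -2.40.

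The 3 fibrinogen chain genes, made mainly in liver and known to be switched on in injured tubule, fell together. Fga read 70.8, 47.5 and 22.4 CPM at day 2 and 3.04, 2.03 and 3.99 at day 14 (log2 fold change -3.96, SE 0.56, adjusted p = 0.00034). Fgg had a log2 fold change of -3.05 (SE 0.65, adjusted p = 0.00707; -4.29 without replicate 2 of day 14). Fgb had no read at day 14 or in untreated kidney and read 2.18, 2.03 and 0.346 CPM at day 2, so it was at least 38.1-fold lower at day 14, taking 3 counts in the whole group as the floor. A second set of injury genes did not pass. Vcam1, an adhesion molecule, read 72.9, 42.3 and 33.2 CPM at day 2 and 42.5, 56.4 and 77.1 at day 14 (adjusted p = 0.745), against 1.47, 1.55 and 1.75 in untreated kidney. Cd44, the hyaluronan receptor, read 27.1, 25.4 and 19.5 CPM at day 2 and 24.4, 11.6 and 39.5 at day 14 (adjusted p = 0.955). Vim, the intermediate filament vimentin, read 12.2, 19.1 and 31.5 CPM at day 2 and 10.4, 14.2 and 28.4 at day 14 (adjusted p = 0.751). For these 3 genes the day 2 and day 14 libraries overlapped. All were above untreated at day 14, with log2 fold changes of 5.21 for Vcam1, 5.32 for Cd44 and 2.24 for Vim (adjusted p = 1.83e-05, 0.00036 and 0.00779).

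**Figure D2:**
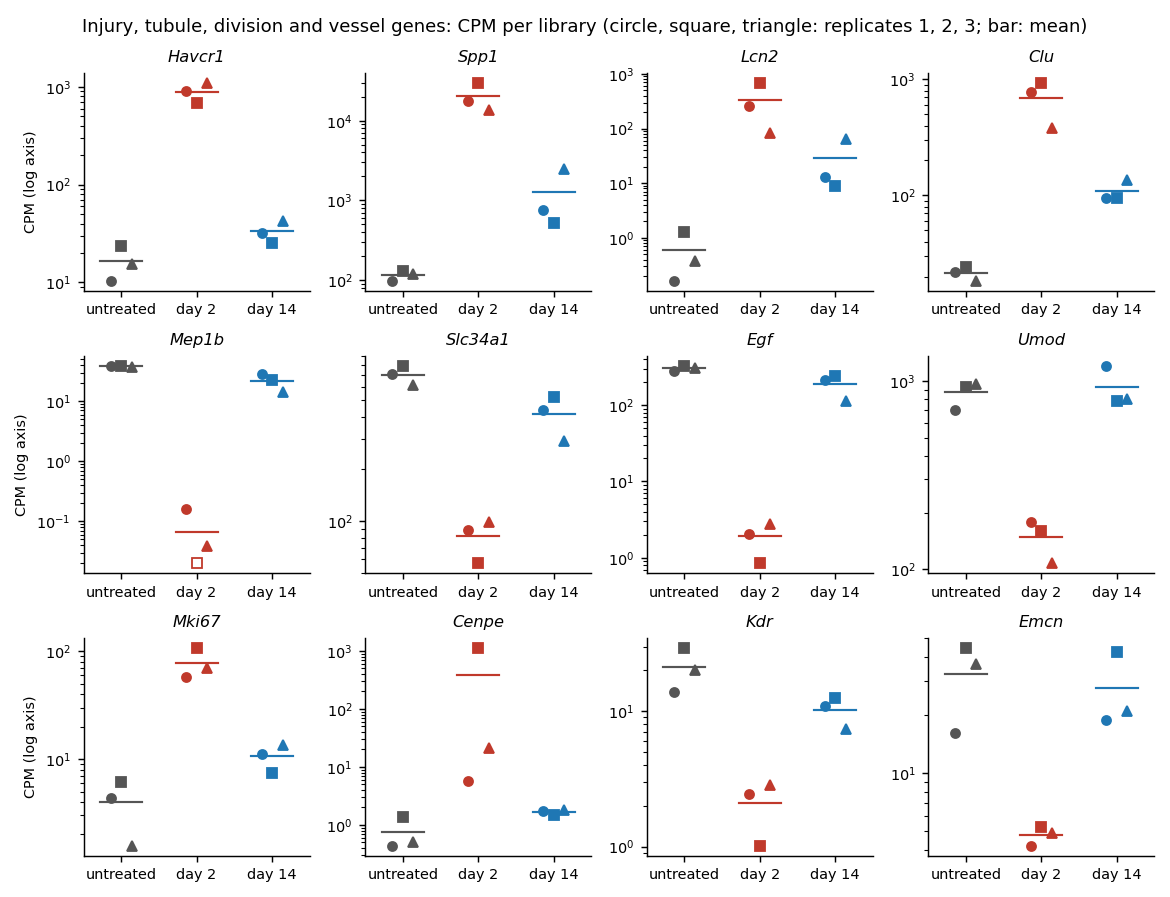
CPM of 12 genes in each untreated, day 2 and day 14 library on log axes. Circles, squares and triangles are replicates 1, 2 and 3, the bar is the group mean, and an open symbol marks a library with no read. Havcr1, Spp1, Lcn2, Clu, Mki67 and Cenpe are lower in every day 14 library than in every day 2 library, and Mep1b, Slc34a1, Egf, Umod, Kdr and Emcn are higher. A single day 2 library, the square at 1113 CPM, lifts the day 2 mean of Cenpe.

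Genes of cell division fell as well. Of 74 mitosis genes tested, 28 fell and none rose, 71 had a negative log2 fold change and the median was -1.94. Of 50 DNA replication genes, 11 fell and none rose, with a median of -1.35. At day 2, 50 of the mitosis genes and 17 of the replication genes were higher than in untreated kidney. At day 14 none of either list passed against untreated. The summed mitosis level was 147 to 174 CPM at day 14, still above the untreated 106 to 123 in every library. The median log2 fold change of the mitosis genes against untreated was 0.72. The replication sums overlapped, at 128 to 164 CPM at day 14 and 143 to 150 untreated. The number of falls in both lists depended on single libraries. Of the mitosis genes, 19 fell without replicate 2 of day 2 and 19 without replicate 3 of day 14. The count was 15 without replicate 1 and 11 without replicate 2 of day 14. For replication genes, leaving out each of these 4 libraries left 6 or 7 falls. Of the 28 mitosis genes, 8 passed with each of the 6 libraries left out in turn.

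Mki67, which coats mitotic chromosomes, read 58.2, 107 and 69.5 CPM at day 2, 11.1, 7.42 and 13.6 at day 14 and 4.40, 6.11 and 1.57 in untreated kidney. All day 14 libraries lay between the untreated and the day 2 libraries (log2 fold change -2.87, SE 0.42, adjusted p = 0.000389), and the difference from untreated did not pass (adjusted p = 0.0869). Cenpe, a kinesin of the kinetochore, read 5.61, 1113 and 21.1 CPM at day 2 and 1.73, 1.46 and 1.83 at day 14. A single library carried most of this difference: the log2 fold change was -7.82 (SE 1.37, adjusted p = 0.00179) and -2.99 without replicate 2 of day 2 (adjusted p = 0.00676). Brca1, of DNA break repair, had the same shape at 17.98, 111 and 10.6 CPM at day 2 and 0.954, 0.162 and 1.06 at day 14, with a log2 fold change of -5.99 (adjusted p = 0.0012) and -4.29 without that library. Mcm2 and Mcm7, subunits of the replicative helicase, were likewise highest in replicate 2 of day 2. Mcm2 read 9.91, 85.9 and 13.6 CPM at day 2 and 4.68, 1.54 and 4.08 at day 14 (log2 fold change -3.39, and -1.77 without that library). Mcm7 read 7.56, 59.2 and 12.9 CPM at day 2 and 1.47, 2.60 and 2.36 at day 14 (log2 fold change -3.61, and -2.25 without it). Depdc1a (log2 fold change -5.13, adjusted p = 0.01), a regulator of spindle orientation, and Cdca8 (log2 fold change -4.40, adjusted p = 0.0113), of the chromosomal passenger complex, also leaned on it. Depdc1a lost its call without replicate 2 of day 2 (adjusted p = 0.123; log2 fold changes were -2.57 and -5.82 without replicate 2 of day 2 or replicate 1 of day 14 in turn). Cdca8 lost it without replicate 2 of day 2 or replicate 1 of day 14 (adjusted p = 0.163 and 0.0566; the log2 fold change was -1.91 without replicate 2 of day 2).

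The same library stood out at 2 genes that belong to no list. Naa16, an auxiliary subunit of an amino-terminal acetyltransferase, read 6.99, 1063 and 7.61 CPM at day 2 and 5.59, 5.23 and 4.12 at day 14. The log2 fold change of -6.17 (adjusted p = 0.00625) became -0.55 without replicate 2 of day 2 (adjusted p = 0.413). Zpr1, a zinc finger protein, read 6.20, 396 and 33.1 CPM at day 2 and 3.21, 4.58 and 2.98 at day 14 (log2 fold change -5.33, and -2.45 without that library). The division genes Anln and Prc1, named after their values were seen, were even across the day 2 libraries. Anln, which encodes the contractile ring protein anillin, read 14.7, 14.9 and 14.9 CPM at day 2 and 2.04, 1.54 and 1.83 at day 14 (log2 fold change -3.03, SE 0.56, adjusted p = 0.00261). Prc1, which bundles microtubules of the central spindle, read 17.5, 14.7 and 14.4 CPM at day 2 and 4.38, 3.37 and 5.46 at day 14 (log2 fold change -1.82, SE 0.41, adjusted p = 0.00953). Both passed with each library left out in turn. Uhrf1, which carries DNA methylation through replication, read 16.3, 8.62 and 9.07 CPM at day 2 and 1.13, 1.09 and 1.51 at day 14 (log2 fold change -3.19, SE 0.48, adjusted p = 0.000584).

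Promoters of 2 mitosis genes that fell are shown because genes of this class are known to share a CCAAT box, the NF-Y site, and a cell cycle homology element read by the DREAM complex and by FOXM1 with MYBL2. They are RefSeq sequences on build GRCm38.p6, from 250 bases before to 50 bases after the start, with the motifs CCAAT and TTTGAA or TTTAAA in capitals on either strand. That of Mki67 is chr7:135716330-135716629 on the minus strand and that of Ccnb2, which encodes cyclin B2, is chr9:70421505-70421804, also on the minus strand.
Mki67: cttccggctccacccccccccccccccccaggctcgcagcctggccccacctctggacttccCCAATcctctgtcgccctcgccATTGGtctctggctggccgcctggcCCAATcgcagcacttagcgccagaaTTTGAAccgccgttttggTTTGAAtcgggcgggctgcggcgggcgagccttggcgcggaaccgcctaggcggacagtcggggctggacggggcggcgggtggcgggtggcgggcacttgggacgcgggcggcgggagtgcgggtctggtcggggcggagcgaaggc
Ccnb2: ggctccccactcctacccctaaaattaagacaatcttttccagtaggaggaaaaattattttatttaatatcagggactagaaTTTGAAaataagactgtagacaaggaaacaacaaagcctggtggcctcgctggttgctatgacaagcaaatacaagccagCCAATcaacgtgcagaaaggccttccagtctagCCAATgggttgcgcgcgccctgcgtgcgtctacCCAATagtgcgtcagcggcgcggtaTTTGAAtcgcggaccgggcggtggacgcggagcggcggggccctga
In Mki67 the CCAAT boxes begin 188, 166 and 141 bases before the start and the TTTGAA elements 116 and 98 bases before it. In Ccnb2 the CCAAT boxes begin 87, 54 and 21 bases before the start, with TTTGAA elements 167 bases before and 5 bases after it. Ccnb2 read 2.83, 2.87 and 9.15 CPM at day 2 and 0.477, 0.487 and 0.652 at day 14 (log2 fold change -3.20, SE 0.73, adjusted p = 0.0102). Ccnb2 lost the call without replicate 3 of day 2 (adjusted p = 0.0562; the log2 fold change was -2.39 there). Of the 74 mitosis genes, 60 had a promoter in the RefSeq table. A CCAAT box on either strand stood in 71.7% of these 60 and in 41.1% of 27025 genes, TTTGAA or TTTAAA on either strand in 78.3% and in 30.6%, and both in 63.3% and in 12.2%. An element and a box can share at most 1 letter, and these shares are a description with no test.

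Tubule genes rose. The proximal tubule reabsorbs most of the filtered salt, glucose, amino acids and phosphate, and it makes glucose. Of 55 proximal enzyme genes tested, 29 rose and 2 fell, with a median log2 fold change of 1.47. Of 46 proximal transporter genes, 14 rose and 2 fell, with a median of 0.71. At day 2, 40 of the enzymes and 30 of the transporters were lower than in untreated kidney (5.98% of all genes were). At day 14 this held for 2 enzymes and 1 transporter (0.309% of all genes). The median log2 fold change of day 14 against untreated was -0.77 for the enzymes and -0.75 for the transporters. The summed proximal enzyme level was 3941, 3834 and 3534 CPM at day 2, 12184, 14576 and 6251 at day 14 and 19659.5, 17631 and 19248 untreated. Replicate 3 of day 14 was the lowest of its group here and the highest for the injury list. Its summed transporter level lay just under the lowest day 2 library. The transporter sums were 6388, 7914 and 3885 CPM at day 14, 4608, 4643 and 3975 at day 2 and 10793, 9863 and 9487 untreated. Without replicate 3 of day 14, 33 enzymes and 15 transporters rose, and without replicate 2 of day 2 24 and 12 did.

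Slc34a1, the sodium-phosphate cotransporter of the brush border, read 89.3, 57.0 and 98.8 CPM at day 2, 439.7, 526 and 289 at day 14 and 712, 796 and 614 untreated. The 3 groups did not overlap (log2 fold change 2.35, SE 0.28, adjusted p = 7.53e-05), and day 14 against untreated did not pass (adjusted p = 0.162). Its RefSeq promoter (GRCm38.p6, chr13:55399398-55399697, plus strand) is printed because HNF1 and HNF4 proteins are known regulators of proximal genes. Capitals mark GTTAAT, a core of HNF1 sites, and CAAAGT, a core of HNF4 sites, on either strand.
Slc34a1: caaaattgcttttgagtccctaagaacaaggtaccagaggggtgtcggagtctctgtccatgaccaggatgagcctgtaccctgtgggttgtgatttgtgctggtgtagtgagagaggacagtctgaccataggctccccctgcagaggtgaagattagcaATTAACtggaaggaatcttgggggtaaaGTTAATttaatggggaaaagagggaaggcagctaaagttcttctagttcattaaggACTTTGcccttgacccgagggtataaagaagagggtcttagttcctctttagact
The GTTAAT matches begin 89 and 61 bases before the start and the CAAAGT match 5 bases before it, and the motifs can share at most 2 letters. On either strand, GTTAAT stood in 8.24% and CAAAGT in 16.1% of 27025 genes. The share over the proximal lists is void, since only 78 of 101 members had a promoter in the table.

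Mep1b, a brush border peptidase, read 0.163, 0 and 0.0384 CPM at day 2, 28.0, 22.8 and 14.4 at day 14 and 38.5, 39.0 and 36.6 untreated. It went from almost no reads to a level still under every untreated library, lowest in replicate 3 (log2 fold change 7.69, SE 0.77, adjusted p = 1.65e-05; 9.27 without replicate 1 of day 2). Slc7a13, an aspartate and cystine carrier of the straight segment, read 8.15, 7.44 and 8.73 CPM at day 2 and 177, 229.9 and 82.7 at day 14 (log2 fold change 4.33, SE 0.49, adjusted p = 5.11e-05). Slc22a8, the organic anion carrier OAT3, read 10.5, 3.21 and 8.46 CPM at day 2 and 98.8, 76.4 and 41.0 at day 14 (log2 fold change 3.24, SE 0.41, adjusted p = 9.51e-05). Slc2a5, the fructose carrier, read 1.55, 2.20 and 0.923 CPM at day 2 and 14.9, 12.8 and 25.5 at day 14, here with replicate 3 of day 14 the highest (log2 fold change 3.57, SE 0.53, adjusted p = 0.000523). Slc22a7, the organic anion carrier OAT2, had no read at day 2 and 6.46, 5.43 and 0.163 CPM at day 14, at least 107-fold higher by the same floor.

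Among the enzymes, Pck1 and G6pc of gluconeogenesis rose. Pck1, which starts gluconeogenesis, read 364, 197 and 147 CPM at day 2 and 1736, 2243 and 1324 at day 14 (log2 fold change 2.90, SE 0.43, adjusted p = 0.000523), with 1717, 1201 and 1312 untreated. G6pc, which releases free glucose, read 15.3, 7.27 and 7.26 CPM at day 2 and 112, 137 and 68.0 at day 14 (log2 fold change 3.39, SE 0.51, adjusted p = 0.000593). Dnase1, a secreted nuclease, read 4.12, 4.73 and 10.99 CPM at day 2 and 236, 279 and 106 at day 14 (log2 fold change 4.95, SE 0.48, adjusted p = 1.65e-05; 5.56 without replicate 3 of day 2). Miox, which degrades inositol, read 22.5, 10.5 and 14.1 CPM at day 2 and 191, 179.6 and 102 at day 14 (log2 fold change 3.31, SE 0.33, adjusted p = 1.65e-05). In all these enzyme genes every day 14 library exceeded every day 2 library. Hpd of tyrosine breakdown read 0, 0 and 0.346 CPM at day 2 and 8.37, 8.47 and 5.91 at day 14 (log2 fold change 5.85, SE 1.18, adjusted p = 0.0049). With almost no reads of Hpd at day 2, the value ran from 4.92 without replicate 1 to 10.81 without replicate 3 of day 2. Inmt, an amine methyltransferase, had a log2 fold change of 4.48 (adjusted p = 0.00167; 5.84 without replicate 3 of day 2). Of genes in no list, Cyp2d9, a cytochrome P450 of a family with near-identical copies, read 0.285, 0.338 and 0.231 CPM at day 2 and 26.1, 40.6 and 20.1 at day 14 (log2 fold change 6.71, SE 0.72, adjusted p = 3.07e-05). Slc22a22, another member of the organic ion carriers, read 1.04, 0.338 and 0.0384 CPM at day 2 and 37.1, 61.9 and 13.4 at day 14 (log2 fold change 6.10, SE 0.86, adjusted p = 0.000305), with 8.42 without replicate 1 and 5.50 without replicate 3 of day 2. Slc22a19 of the same family had a log2 fold change of 3.54 (adjusted p = 0.00124). Reads of such families can be split between copies, so their levels are uncertain.

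The receptors of protein uptake moved little. Lrp2, which encodes megalin, read 587, 542 and 506 CPM at day 2, 1058, 1258 and 565 at day 14 and 2180.1, 1821 and 1748 untreated, with replicate 3 of day 14 inside the day 2 range (log2 fold change 0.82, SE 0.23, adjusted p = 0.0333). That call was lost without any library but replicate 3 of day 14 (adjusted p = 0.0535 to 0.157). Lrp2 was still lower at day 14 than in untreated kidney (log2 fold change -0.997, adjusted p = 0.0357). Its partner Cubn, cubilin, had a log2 fold change of 0.71 (adjusted p = 0.0463) and lost the call without any 1 of the 6 libraries (adjusted p = 0.0508 to 0.137). The 2 transporters and 2 enzymes that fell were Slc13a1, Slc26a1, Cyp24a1 and the glutathione transferase Gsta2 (log2 fold change -1.63, adjusted p = 0.0448), whose call was lost without replicates 1 or 2 of day 2 or replicates 1 or 3 of day 14 (adjusted p = 0.0849 to 0.142; the log2 fold change was -2.29 without replicate 2 of day 14). Slc13a1, the sodium-sulfate cotransporter, read 608, 425 and 471 CPM at day 2, 153, 274 and 163 at day 14 and 136, 138 and 166 untreated (log2 fold change -1.35, SE 0.23, adjusted p = 0.00164), and passed with each library left out. Cyp24a1, which inactivates vitamin D, read 101, 87.2 and 119 CPM at day 2 and 19.6, 33.5 and 52.3 at day 14 (log2 fold change -1.55, SE 0.43, adjusted p = 0.0287). Cyp24a1 lost the call without replicates 1 or 3 of day 2 or replicates 1 or 2 of day 14 (adjusted p = 0.0504 to 0.126). The sulfate exchanger Slc26a1 (log2 fold change -1.27, adjusted p = 0.044) lost it without replicate 2 of day 2 or replicates 1, 2 or 3 of day 14 (adjusted p = 0.062 to 0.212).

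Of 36 loop of Henle and distal tubule genes tested, 17 rose and 1 fell. The median log2 fold change was 1.35, and 1 was lower at day 14 than in untreated kidney. The count was 13 without replicate 2 of day 2, 16 without replicate 3 of day 14, 11 without replicate 3 of day 2 and 10 without replicate 2 of day 14. Egf, the growth factor precursor of the thick ascending limb and distal tubule, read 2.08, 0.845 and 2.81 CPM at day 2, 214, 242 and 112 at day 14 and 282, 329 and 307 untreated. It was all but absent at day 2, and each day 14 library came back to a level below the untreated ones (log2 fold change 6.52, SE 0.53, adjusted p = 1.54e-06). Umod, which encodes uromodulin, the main protein of normal urine, read 178, 159.9 and 108 CPM at day 2, 1205, 782 and 798 at day 14 and 705, 934 and 967 untreated (log2 fold change 2.64, SE 0.31, adjusted p = 6.76e-05). Slc12a1, the furosemide-sensitive sodium-potassium-chloride cotransporter, read 39.8, 14.9 and 49.5 CPM at day 2 and 581, 463 and 381 at day 14 (log2 fold change 3.76, SE 0.46, adjusted p = 7.62e-05). For Umod and Slc12a1 the day 14 libraries overlapped the untreated ones and none reached down to day 2.

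The calcium-binding proteins of the distal tubule rose too. S100g, calbindin-D9k, read 12.4, 3.04 and 17.4 CPM at day 2 and 179, 282 and 137 at day 14 (log2 fold change 4.15, SE 0.55, adjusted p = 0.000157). Calb1, calbindin-D28k, read 21.1, 6.76 and 21.5 CPM at day 2 and 162, 189 and 181 at day 14 (log2 fold change 3.41, SE 0.41, adjusted p = 7.61e-05). Pvalb, parvalbumin, another calcium-binding protein, and Tmem207, a membrane protein, also rose (log2 fold changes 3.50 and 6.11, adjusted p = 0.024 and 0.00297). Pvalb lost its call without replicates 1 or 2 of day 2 or replicates 1 or 2 of day 14 (adjusted p = 0.0512 to 0.0782), and the log2 fold change of Tmem207 was 5.21 and 8.81 without replicates 1 or 3 of day 2 in turn. Trpv5, the calcium channel through which they are supplied, was the member that fell, at 25.1, 190.3 and 14.7 CPM at day 2 and 6.07, 8.96 and 17.0 at day 14. The groups overlapped and the call (log2 fold change -2.84, adjusted p = 0.0262) rested on replicate 2 of day 2, without which the log2 fold change was -0.90. The call was lost without replicate 2 of day 2 or replicates 1 or 2 of day 14 (adjusted p = 0.0959 to 0.393).

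Of 32 collecting duct genes, 7 rose and none fell, with a median of 1.03 and 29 positive values. Aqp6, a channel of acid-secreting intercalated cells, read 2.55, 3.21 and 1.96 CPM at day 2 and 15.1, 12.8 and 20.2 at day 14 (log2 fold change 2.66, SE 0.45, adjusted p = 0.00142). Car12, a membrane carbonic anhydrase, read 53.3, 30.8 and 71.7 CPM at day 2 and 214, 194 and 94.3 at day 14 (log2 fold change 1.69, SE 0.36, adjusted p = 0.00766). Aqp3, the basolateral water channel of principal cells, had a log2 fold change of 2.23 (adjusted p = 0.0239). Aqp3 lost the call without replicates 1 or 2 of day 2 or replicate 3 of day 14 (adjusted p = 0.0536 to 0.0922). Aqp2, its luminal counterpart, read 10.03, 8.28 and 26.5 CPM at day 2 and 9.97, 14.2 and 23.6 at day 14, with overlap, and did not pass (adjusted p = 0.954). Nccrp1, an F-box family protein of uncertain role in kidney, had no read at day 2 and 2.13, 5.27 and 1.10 CPM at day 14, at least 76.97-fold higher. Slc4a1, the chloride-bicarbonate exchanger shared with red cells, rose (log2 fold change 3.25, SE 0.80, adjusted p = 0.0163). Slc4a1 lost the call without replicate 2 of day 2 or replicate 2 of day 14 (adjusted p = 0.0573 and 0.0698; the log2 fold change was 2.66 without replicate 2 of day 14). The 6 red blood cell genes summed to 5.19 to 8.87 CPM at day 2 and 5.01 to 9.19 at day 14, and none passed.

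Of 38 tubule transcription factors, 3 rose and 2 fell, with a median of 0.14 (4.68% of all genes rose and 4.74% fell). Pax8, of nephron development, fell (log2 fold change -1.14, adjusted p = 0.0379), while Hlf and Tef, which follow the daily clock, and Sim1 rose (log2 fold changes 2.27, 1.48 and 1.51), and each of these 4 lost its call in some fits. Pax8 lost it without any library but replicate 1 of day 2 (adjusted p = 0.0777 to 0.124). Hlf lost it without replicate 2 of day 2 or replicate 2 of day 14 (adjusted p = 0.0571 and 0.0658). Tef lost it without any library but replicate 1 of day 2 (adjusted p = 0.0544 to 0.156). Sim1 lost it without replicate 3 of day 2 or replicate 1 of day 14 (adjusted p = 0.0715 and 0.0667). Hnf4a, which maintains proximal genes, read 136, 334 and 223 CPM at day 2 and 128, 233 and 106 at day 14, with overlap, and did not pass (adjusted p = 0.298).

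**Figure D3:**
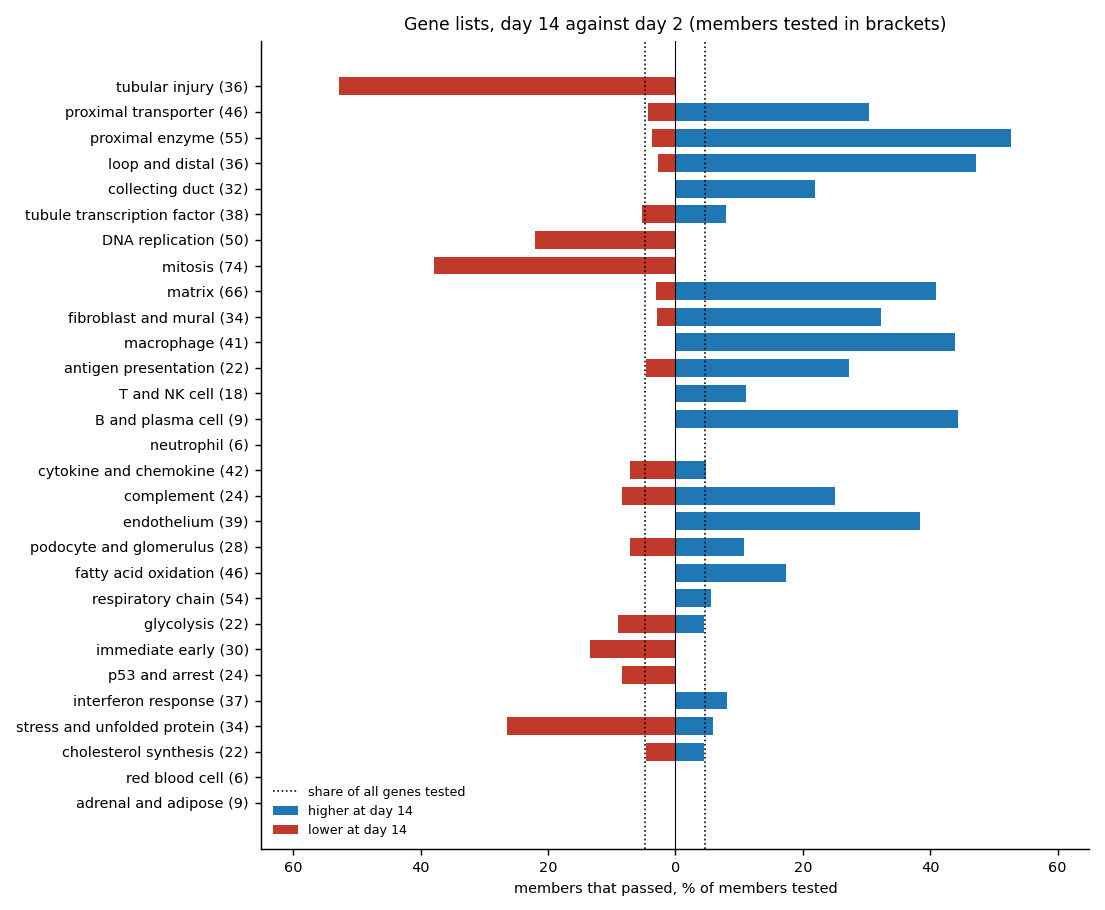
Share of the tested members of 29 gene lists (number tested in brackets) that rose (blue, to the right) or fell (red, to the left) between day 2 and day 14, in percent. Dotted lines give the share over all genes, 4.74% lower and 4.68% higher. Tubular injury, mitosis, stress and DNA replication lists reach furthest left, and proximal enzyme, loop and distal, B and plasma cell, macrophage and matrix lists furthest right.

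Some genes of energy use rose. Of 46 fatty acid oxidation genes, 8 rose (4.68% of all genes did) and none fell, with a median log2 fold change of 0.47. The count was 4 without replicate 2 of day 2, 4 without replicate 1 or 2 of day 14, and 10 without replicate 3 of day 14. The summed level overlapped between the times, at 1615, 1541 and 1304 CPM at day 2 and 2162, 2288 and 1460 at day 14. Eci3, of peroxisomal oxidation, read 5.22, 1.69 and 1.69 CPM at day 2 and 16.1, 34.7 and 11.4 at day 14 (log2 fold change 2.79, SE 0.60, adjusted p = 0.00745). For Eci3 the log2 fold change was 3.61 and 2.20 without replicate 1 of day 2 or replicate 2 of day 14 in turn. Bdh1, of ketone body use, read 3.51, 2.54 and 5.34 CPM at day 2 and 22.2, 28.8 and 15.2 at day 14 (log2 fold change 2.51, SE 0.39, adjusted p = 0.000782). Scp2, a sterol carrier and thiolase, read 70.4, 43.4 and 61.5 CPM at day 2 and 188, 219 and 145 at day 14 (log2 fold change 1.65, SE 0.27, adjusted p = 0.000976). Pecr, an enoyl reductase of peroxisomes, had a log2 fold change of 1.86 (adjusted p = 0.00864). Cpt1a, which admits fatty acids to mitochondria, overlapped between the times, at 86.3, 132 and 105 CPM at day 2 and 106, 99.7 and 73.2 at day 14 (adjusted p = 0.65).

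Of 54 nuclear respiratory chain genes, 3 rose and none fell, which is near the share of all genes that rose, and 45 had a positive log2 fold change with a median of 0.48. Ndufs1 of complex I, and Sdha and Sdhb of complex II, were the 3 (log2 fold changes 1.28, 1.22 and 1.25), and none of them passed in all 6 fits with a library left out. Ndufs1 lost its call without replicate 3 of day 2 (adjusted p = 0.0505). Sdha lost it without replicate 2 of day 2 or replicate 1 of day 14 (adjusted p = 0.0513 and 0.0771). Sdhb lost it without replicates 1 or 2 of day 2 or replicate 2 of day 14 (adjusted p = 0.0663 to 0.184). Without replicate 3 of day 14 the count was 8, and without replicate 2 of day 2 it was 1. At day 2, 26 of the 54 had been lower than in untreated kidney, and at day 14 none passed against untreated. Their summed level was 2207 to 3539 CPM at day 14, under the untreated 4250 to 4774 in every library. At day 2 it was 2085 to 2615 CPM, with overlap with day 14. The median log2 fold change of day 14 against untreated was -0.50. Of 22 glycolysis genes, Pfkp and Ldha fell (log2 fold changes -1.44 and -1.03) and Pdk1, which restrains pyruvate entry to mitochondria, rose from 1.32, 1.52 and 1.42 CPM at day 2 to 5.204, 5.19 and 7.62 at day 14 (log2 fold change 2.09, SE 0.45, adjusted p = 0.00743). The call for Pfkp was lost without replicate 1 of day 2 or replicate 2 of day 14 (adjusted p = 0.0626 and 0.0748) and that for Ldha without replicate 2 of day 2 or replicate 3 of day 14 (adjusted p = 0.0741 and 0.0581).

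In cholesterol synthesis, 1 gene rose, 1 fell and 20 of 22 did not pass (4.68% of all genes rose and 4.74% fell). Cyp51, the lanosterol demethylase, read 5.14, 5.41 and 2.92 CPM at day 2, 43.2, 33.3 and 10.5 at day 14 and 71.0, 60.99 and 63.6 untreated (log2 fold change 2.71, SE 0.45, adjusted p = 0.00123).

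Endothelial genes rose. Of 39 tested, 15 rose and none fell. The median log2 fold change was 1.65, and 13 had been lower at day 2 than in untreated kidney while 1 was higher at day 14. Without replicate 2 of day 2 the count was 10 and without replicate 3 of day 14 it was 11. The summed level was 128, 188 and 172 CPM at day 2, 351, 398 and 367 at day 14 and 284, 433 and 351 untreated, with day 14 wholly above day 2 and within the untreated range. Emcn, the endothelial sialomucin endomucin, read 4.20, 5.24 and 4.92 CPM at day 2 and 19.0, 42.6 and 21.0 at day 14 (log2 fold change 2.53, SE 0.38, adjusted p = 0.000604). Kdr, the main receptor for VEGF, read 2.47, 1.01 and 2.84 CPM at day 2 and 10.9, 12.4 and 7.38 at day 14 (log2 fold change 2.22, SE 0.42, adjusted p = 0.00335). Tek, the angiopoietin receptor, read 2.59, 0.676 and 2.11 CPM at day 2 and 9.76, 13.5 and 10.5 at day 14 (log2 fold change 2.57, SE 0.43, adjusted p = 0.00123). Fli1, an endothelial transcription factor, had a log2 fold change of 3.10 (adjusted p = 0.0134). Fli1 lost the call without replicates 2 or 3 of day 2 (adjusted p = 0.0536 and 0.0543; the log2 fold change was 3.96 without replicate 1 of day 2). Sox18, a transcription factor, was uneven at day 14, at 0.737, 5.64 and 26.4 CPM against 0.265, 2.03 and 1.42 CPM at day 2, with overlap. Its call (log2 fold change 3.25, adjusted p = 0.0443) was lost without any library but replicate 1 of day 14 (adjusted p = 0.056 to 0.359; the log2 fold change was 1.46 without replicate 3 of day 14).

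Of 28 podocyte and glomerular genes, 3 rose and 2 fell, with a median of 0.54 (4.68% of all genes rose and 4.74% fell). Vegfa, which podocytes and tubules make for the capillaries, read 24.9, 27.2 and 29.4 CPM at day 2, 58.8, 54.6 and 52.1 at day 14 and 92.0, 84.0 and 75.4 untreated, 3 tight and separate groups (log2 fold change 1.02, SE 0.20, adjusted p = 0.00412). Cd2ap, an adaptor of the slit diaphragm that tubule cells also express, read 325, 331 and 306 CPM at day 2, 102, 97.1 and 105 at day 14 and 99.98, 94.0 and 109.9 untreated (log2 fold change -1.66, SE 0.21, adjusted p = 8.99e-05), so day 14 overlapped untreated. Clic5, of podocyte foot processes, rose with overlap and the secreted semaphorin Sema3g rose without (log2 fold changes 1.25 and 2.66) and the actin linker Actn4 fell (-0.85). Clic5 lost its call without replicates 1 or 3 of day 2 or replicates 1 or 2 of day 14 (adjusted p = 0.0618 to 0.107). Sema3g lost it without replicates 2 or 3 of day 2 (adjusted p = 0.0504 and 0.0552; the log2 fold change was 3.30 without replicate 1 of day 2). Actn4 lost it without replicate 2 of day 2 or replicates 1 or 2 of day 14 (adjusted p = 0.0614 to 0.072).

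**Figure D4:**
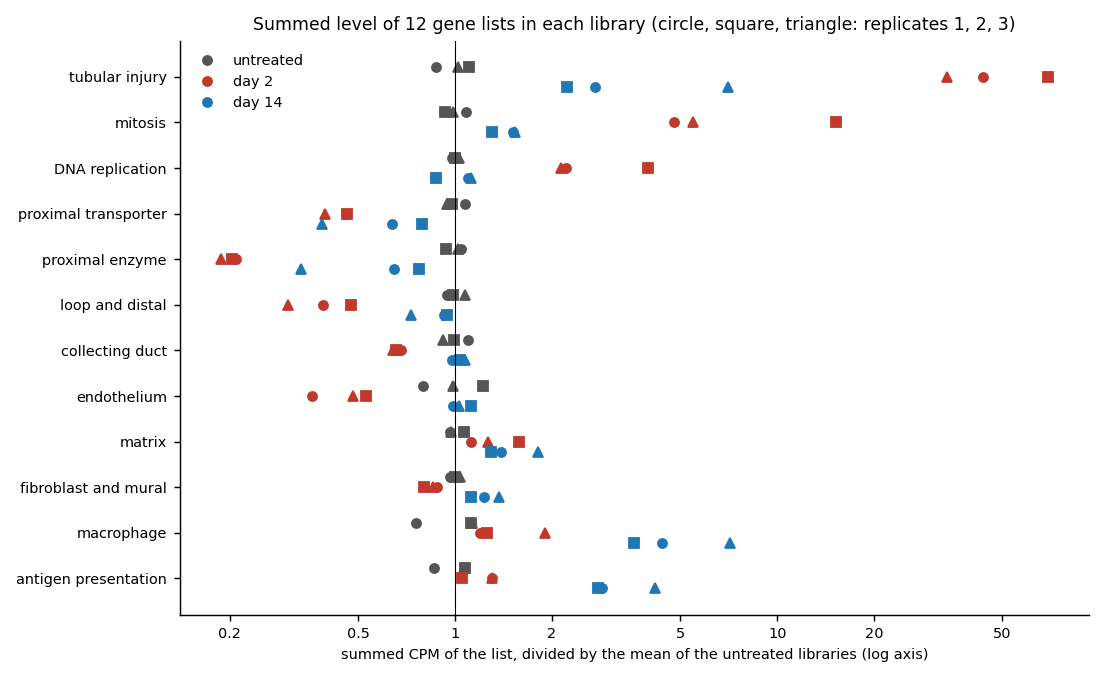
Summed CPM of 12 gene lists in each untreated, day 2 and day 14 library, divided by the mean of the untreated libraries (log axis). Circles, squares and triangles are replicates 1, 2 and 3. At day 14 the injury list is still above untreated and the proximal lists below it, the endothelial list overlaps untreated, and the macrophage and antigen presentation lists lie above both other groups.

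Some genes of the matrix and of stromal cells rose. Of 66 matrix genes tested, 27 rose and 2 fell. The median log2 fold change was 1.39, and 24 were higher at day 14 than in untreated kidney. At day 2, 21 of the 66 had been higher and 8 lower than in untreated kidney. The summed matrix level overlapped between the times, at 1473, 2073 and 1661 CPM at day 2 and 1818, 1693 and 2371 at day 14. Untreated libraries held 1263, 1395 and 1272 CPM. Of 34 fibroblast and mural genes, 11 rose and 1 fell, with a median of 1.32. Against untreated kidney, 2 of these 34 were higher and 1 lower at day 14, and 3 were higher and 4 lower at day 2. The matrix count was 19 without replicate 2 of day 2, 21 without replicate 3 of day 14 and 14 without both. The fibroblast count was 9, 9 and 6, and also 7 without replicate 1 of day 2 or replicate 1 of day 14.

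Dcn, the small proteoglycan decorin, read 1.24, 0.169 and 2.38 CPM at day 2, 32.6, 40.5 and 28.4 at day 14 and 12.5, 9.51 and 9.02 untreated, with day 14 above both groups in every library and day 2 below untreated (adjusted p = 0.00429). The rise from day 2 passed (log2 fold change 4.59, SE 0.65, adjusted p = 0.00034; 5.24 without replicate 3 of day 2) and the difference from untreated did not (adjusted p = 0.133). Mgp, an inhibitor of calcification, read 2.77, 0.676 and 4.27 CPM at day 2, 41.1, 27.5 and 63.8 at day 14 and 4.62, 3.78 and 5.26 untreated, and passed in both comparisons (log2 fold change 4.01, SE 0.50, adjusted p = 8.99e-05; against untreated log2 fold change 3.28, adjusted p = 0.00112). Sparcl1, a matricellular protein, had a log2 fold change of 3.76 (adjusted p = 0.000225). Mmp2, the gelatinase of stromal cells, read 0.0204, 0 and 0 CPM at day 2, 8.72, 4.99 and 27.1 at day 14 and 0.381, 0.547 and 1.63 untreated. Its log2 fold change of 9.72 (SE 1.51, adjusted p = 0.000751) was set against 1 day 2 library with any read. For Mmp2 the log2 fold change was 11.58 and 8.74 without replicate 1 of day 2 or replicate 3 of day 14 in turn. Smoc2, a matricellular protein, read 0, 0.169 and 0.154 CPM at day 2 and 16.3, 8.60 and 8.40 at day 14 (log2 fold change 7.14, SE 0.98, adjusted p = 0.000252). The value for Smoc2 ran from 6.09 without replicate 1 to 8.71 without replicate 3 of day 2.

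Of the fibrillar collagens, Col3a1 and Col1a1 were already above untreated kidney at day 2 (log2 fold changes 1.56 and 3.44, adjusted p = 0.0145 and 0.00158). Col3a1 read 14.3, 21.8 and 22.3 CPM at day 2, 92.8, 44.5 and 131 at day 14 and 6.74, 5.66 and 7.45 untreated (log2 fold change 2.20, SE 0.40, adjusted p = 0.00249). Col1a2 read 10.5, 11.7 and 28.1 CPM at day 2 and 56.9, 39.2 and 109 at day 14 (log2 fold change 2.02, SE 0.42, adjusted p = 0.00582; 2.63 without replicate 3 of day 2). Col1a1 read 19.97, 30.9 and 36.9 CPM at day 2, 35.1, 23.0 and 95.8 at day 14 and 3.21, 3.66 and 1.06 untreated, and the day 2 and day 14 libraries overlapped. The difference did not pass (log2 fold change 0.81, SE 0.58, adjusted p = 0.415) and was -0.01 without replicate 3 of day 14. Day 14 was above untreated (log2 fold change 4.25, SE 0.66, adjusted p = 0.002). Fn1, fibronectin, overlapped between day 2 and day 14, at 35.0, 96.5 and 69.9 CPM at day 2 and 84.0, 69.1 and 119 at day 14 (adjusted p = 0.461). Ccn1, an early secreted matrix signal, fell with overlap, from 28.8, 119 and 15.0 CPM at day 2 to 3.17, 3.28 and 15.7 at day 14 (log2 fold change -2.87, adjusted p = 0.0273). Ccn1 lost the call without replicate 2 of day 2 or replicates 1 or 2 of day 14 (adjusted p = 0.11 to 0.209; the log2 fold change was -1.57 without replicate 2 of day 2), with a log2 fold change of -4.06 without replicate 3 of day 14. Adamts1, a secreted protease, was the other matrix gene that fell (log2 fold change -1.31, adjusted p = 0.0423). Adamts1 lost the call without any library but replicate 3 of day 14 (adjusted p = 0.053 to 0.165).

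Among cell markers of the stroma, Pdgfra, a receptor of fibroblasts, read 1.65, 0.676 and 1.65 CPM at day 2, 19.3, 20.03 and 26.9 at day 14 and 22.3, 3.71 and 3.76 untreated (log2 fold change 3.96, SE 0.68, adjusted p = 0.00158). The first untreated library was level with day 14 and the other untreated libraries were far below it. Cxcl12, a chemokine of stromal cells, read 5.08, 0.507 and 3.00 CPM at day 2, 76.4, 57.9 and 62.4 at day 14 and 31.8, 45.9 and 55.3 untreated (log2 fold change 4.40, SE 0.57, adjusted p = 0.000129; 5.03 without replicate 1 of day 2). Tcf21, a stromal and podocyte transcription factor, read 0.713, 0.169 and 0.538 CPM at day 2 and 12.2, 7.58 and 11.7 at day 14 (log2 fold change 4.29, SE 0.52, adjusted p = 7.92e-05). Cdh11, cadherin 11, an adhesion molecule of mesenchymal cells, read 2.14, 0.507 and 6.15 CPM at day 2, 23.9, 34.6 and 42.3 at day 14 and 3.64, 1.14 and 4.01 untreated. Here day 2 and untreated overlapped (adjusted p = 0.945) and every day 14 library was above both (log2 fold change 3.44, SE 0.66, adjusted p = 0.00335; 4.47 without replicate 3 of day 2; against untreated 3.54, adjusted p = 0.00874). Acta2, the smooth muscle actin of myofibroblasts and vessel walls, did not pass, at 4.97, 55.3 and 13.9 CPM at day 2 and 2.43, 5.72 and 8.11 at day 14 (log2 fold change -2.17, adjusted p = 0.0814). Nt5e, an ectonucleotidase of cortical fibroblasts and proximal brush border, was the member that fell, with overlap (log2 fold change -1.08, adjusted p = 0.0309). Nt5e lost the call without replicates 1 or 3 of day 2 or replicates 2 or 3 of day 14 (adjusted p = 0.0554 to 0.15).

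**Figure D5:**
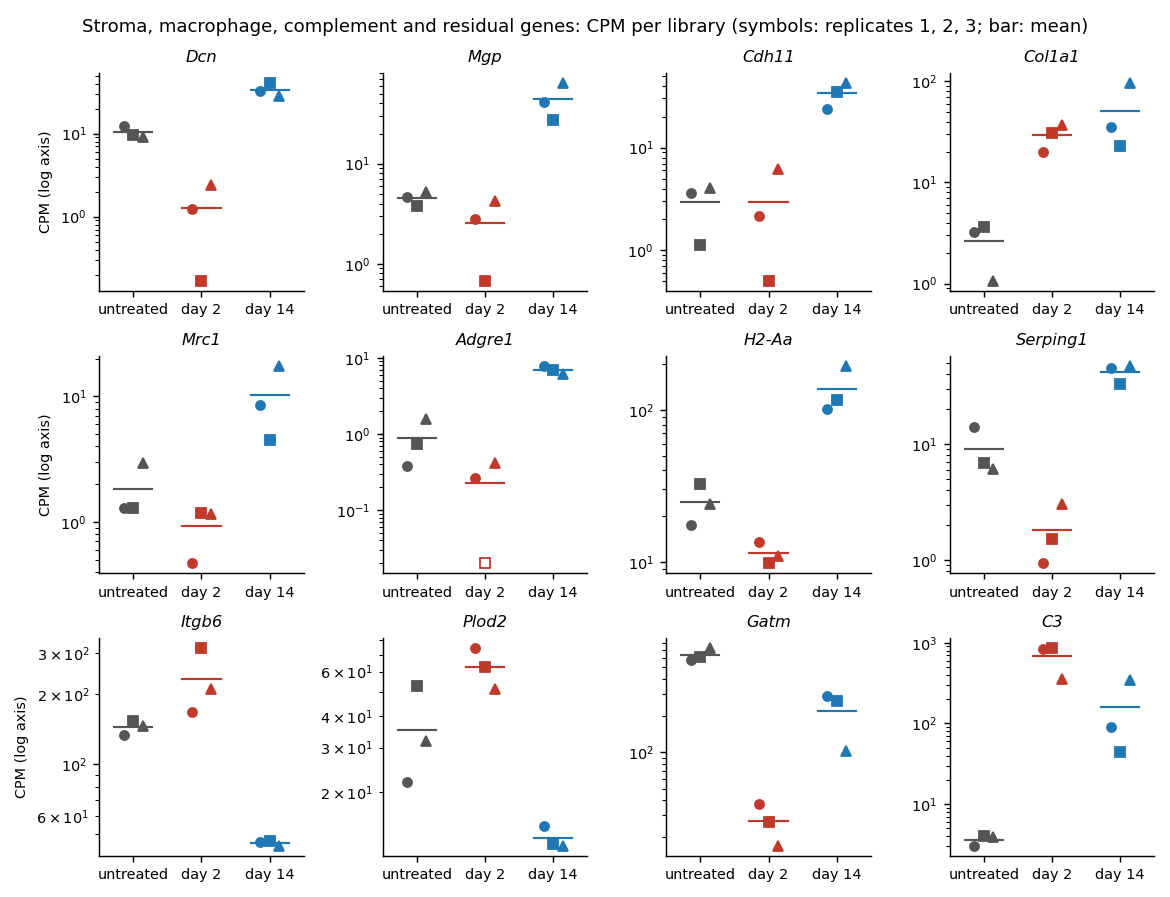
CPM of 12 genes in each untreated, day 2 and day 14 library on log axes, with circles, squares and triangles for replicates 1, 2 and 3, a bar for the mean and an open symbol for a library with no read. Dcn, Mgp, Cdh11, Mrc1, Adgre1, H2-Aa and Serping1 are higher in every day 14 library than in every other library shown, Col1a1 overlaps between day 2 and day 14, Itgb6 and Plod2 are lowest at day 14, and Gatm and C3 lie between the other groups.

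Macrophage genes rose. Of 41 tested, 18 rose and none fell. The median log2 fold change was 2.02, and 15 were higher at day 14 than in untreated kidney against 6 at day 2. Without replicate 2 of day 2 the count was 14, and without replicate 3 of day 14 it was 11. Their summed level was 99.6, 105 and 159 CPM at day 2, 366, 300.3 and 596 at day 14 and 63.0, 93.5 and 94.0 untreated, so day 14 was above both in every library and replicate 3 was the highest. Adgre1, the macrophage marker F4/80, read 0.265, 0 and 0.423 CPM at day 2, 7.94, 7.01 and 6.07 at day 14 and 0.381, 0.737 and 1.57 untreated (log2 fold change 4.63, SE 0.65, adjusted p = 0.000286). Mrc1, the mannose receptor CD206, read 0.469, 1.18 and 1.15 CPM at day 2, 8.59, 4.50 and 17.6 at day 14 and 1.30, 1.28 and 2.94 untreated (log2 fold change 3.53, SE 0.60, adjusted p = 0.00135; 2.88 without replicate 3 of day 14). Lyz2, the lysozyme of myeloid cells, was the most abundant of those given, at 7.81, 8.79 and 23.9 CPM at day 2 and 112, 107 and 189 at day 14 (log2 fold change 3.32, SE 0.58, adjusted p = 0.00164; 4.04 without replicate 3 of day 2). Ccr2, the chemokine receptor of recruited monocytes, read 2.69, 4.56 and 10.4 CPM at day 2 and 27.1, 21.4 and 30.9 at day 14 (log2 fold change 2.16, SE 0.51, adjusted p = 0.0127). Ccr2 missed the threshold without replicate 2 of day 2 (adjusted p = 0.0529). For Ccr2 the log2 fold change was 2.92 without replicate 3 of day 2. C1qc, a chain of complement C1q made by macrophages, and Ctss, the lysosomal protease cathepsin S, also rose. C1qc read 0.836, 0.338 and 0.846 CPM at day 2 and 9.15, 5.23 and 15.7 at day 14 (log2 fold change 3.77, SE 0.70, adjusted p = 0.0027). Ctss read 0.876, 1.52 and 2.08 CPM at day 2 and 23.6, 4.42 and 16.3 at day 14 (log2 fold change 3.32, SE 0.58, adjusted p = 0.00172). Cd68, a lysosomal protein of macrophages, read 1.71, 6.42 and 4.61 CPM at day 2 and 1.56, 2.72 and 15.4 at day 14 with overlap and did not pass (adjusted p = 0.657).

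Of 22 antigen presentation genes tested, 6 rose, 1 fell and 15 did not pass. The median was 1.07 on the log2 scale, and 4 were higher at day 14 than in untreated kidney. H2-Aa and Cd74 serve MHC class II, which presents peptides to helper T cells. H2-Aa read 13.5, 9.80 and 10.96 CPM at day 2, 102, 116 and 195 at day 14 and 17.5, 32.4 and 24.1 untreated (log2 fold change 3.58, SE 0.36, adjusted p = 1.65e-05). Cd74, the invariant chain that loads these molecules, read 46.3, 41.2 and 41.1 CPM at day 2, 237, 239.6 and 426 at day 14 and 49.1, 45.6 and 50.05 untreated (log2 fold change 2.81, SE 0.41, adjusted p = 0.00046). For both genes the day 14 libraries exceeded all others, and the difference from untreated passed as well (log2 fold changes 2.48 and 2.64, adjusted p = 0.000765 and 0.002). H2-Eb1, another class II chain, and Nlrc5, an activator of class I genes, had log2 fold changes of 2.53 and 2.92 (adjusted p = 0.00406 and 0.0391). Nlrc5 lost its call without replicates 1 or 2 of day 2 or replicate 1 of day 14 (adjusted p = 0.122 to 0.221; log2 fold changes were 4.26 and 1.85 without replicate 3 of day 2 or replicate 1 of day 14 in turn). The member that fell was Tapbp, of the class I loading complex, and its call (log2 fold change -1.01, adjusted p = 0.0496) was lost without any 1 of the 6 libraries (adjusted p = 0.0702 to 0.189). Cd209a, a lectin of dendritic cells, had no read at day 2 and 2.26, 2.55 and 0.978 CPM at day 14, at least 51.9-fold higher. Cd209a missed the threshold without replicate 1 of day 2 (adjusted p = 0.0584).

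Complement genes moved both ways. Of 24 tested, 6 rose and 2 fell, and these counts were the same without replicate 2 of day 2, without replicate 3 of day 14 and without both. Serping1, the C1 inhibitor, read 0.938, 1.52 and 3.04 CPM at day 2, 45.6, 33.0 and 47.4 at day 14 and 14.1, 6.82 and 6.14 untreated (log2 fold change 4.51, SE 0.58, adjusted p = 0.000129; 5.198 without replicate 3 of day 2). C3ar1, the receptor for the C3a fragment, read 0.917, 0.507 and 1.65 CPM at day 2 and 8.02, 21.9 and 37.9 at day 14 (log2 fold change 4.37, SE 0.63, adjusted p = 0.000366; 3.78 without replicate 3 of day 14). The component genes C7, C8a and C1s1 rose too (log2 fold changes 3.64, 5.51 and 2.76). C3, the central component, fell from 825, 855 and 353 CPM at day 2 to 90.4, 44.1 and 347 at day 14 (log2 fold change -2.08, SE 0.50, adjusted p = 0.0148). Its lowest day 2 library was level with replicate 3 of day 14. The call for C3 was lost without replicate 1 of day 14 (adjusted p = 0.0707), its log2 fold change was -3.33 without replicate 3 of day 14, and C3 was still far above the untreated 3.04, 4.02 and 3.88 CPM (log2 fold change 5.45, adjusted p = 0.000118). C4b, of the classical pathway, fell as well (log2 fold change -1.32, SE 0.27, adjusted p = 0.00544) and stayed above untreated (log2 fold change 1.98, adjusted p = 0.000852).

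Lymphocyte genes had low levels. The B and plasma cell list summed to 4.30, 2.87 and 4.27 CPM at day 2 and 15.4, 29.6 and 16.2 at day 14, without overlap. Untreated libraries held 14.4, 8.75 and 11.7 CPM. The T and natural killer cell list summed to 4.71, 21.97 and 7.07 CPM at day 2 and 12.1, 9.85 and 13.3 at day 14, with overlap. Of 9 B and plasma cell genes tested, 4 rose, and of 18 T and natural killer cell genes 2 rose. None of these 6 passed in all fits with a library left out, and 12 and 19 further members were below the low-count filter. Igkc, the kappa light chain, read 0.856, 0 and 0.269 CPM at day 2, 3.64, 3.89 and 3.63 at day 14 and 4.19, 2.97 and 2.63 untreated (log2 fold change 3.03, adjusted p = 0.0219). It lost the call without replicates 2 or 3 of day 2 or replicate 2 of day 14 (adjusted p = 0.0518 to 0.0762). For Igkc the log2 fold change was 4.27 without replicate 1 of day 2. The others were Ighm, Jchain and the complement receptor Cr2 (log2 fold changes 2.53 and 1.91 for Ighm and Cr2), and Jchain had no read at day 2 and 0.781, 1.34 and 0.652 CPM at day 14, at least 25.0-fold higher. Ighm lost its call without replicates 1 or 2 of day 2 or replicate 3 of day 14 (adjusted p = 0.0698 to 0.078; the log2 fold change was 3.57 without replicate 3 of day 2). Jchain lost it without replicates 1 or 3 of day 2 or replicate 2 of day 14 (adjusted p = 0.0583 to 0.0848). Cr2 lost it without any library but replicate 3 of day 2 (adjusted p = 0.0757 to 0.138). The natural killer receptors Il2rb and Klrk1 had no read at day 2 and at most 0.856 and 0.770 CPM at day 14, and neither passed in any of the 6 fits. No neutrophil gene passed among the 6 tested, and 13 were below the filter.

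The list of 42 cytokines and chemokines held 2 genes higher at day 14, 3 lower and 37 that did not pass. Over all genes tested, 4.68% were higher and 4.74% lower, so these counts do not mark the list as changing less than other genes. Clcf1, a cytokine of the interleukin 6 family, read 47.6, 56.8 and 69.6 CPM at day 2 and 6.51, 4.62 and 16.4 at day 14 (log2 fold change -2.66, SE 0.55, adjusted p = 0.00595; -3.38 without replicate 3 of day 14). Lif, of the same family, fell from 39.1, 7.77 and 4.88 CPM at day 2 to 0.0434, 1.22 and 2.65 at day 14 (log2 fold change -3.73, adjusted p = 0.0291). It lost the call without replicate 1 of day 2 or replicates 1 or 2 of day 14 (adjusted p = 0.0806 to 0.175; the log2 fold change was -2.26 without replicate 1 of day 2), and its log2 fold change was -4.77 without replicate 3 of day 14. Il34, a ligand of the macrophage receptor CSF1R, fell (log2 fold change -1.91, adjusted p = 0.034). Il34 lost the call without replicate 2 of day 2 or replicates 1 or 2 of day 14 (adjusted p = 0.111 to 0.41; the log2 fold change was -0.60 without replicate 2 of day 2). The chemokines Ccl12 and Cxcl14 rose (log2 fold changes 3.97 and 2.37). Ccl12 lost its call without any 1 of the 6 libraries (adjusted p = 0.0606 to 0.135). Cxcl14 lost it without any library but replicate 1 of day 2 (adjusted p = 0.0548 to 0.177; log2 fold changes were 2.99 and 1.72 without replicate 1 of day 2 or replicate 3 of day 14 in turn). Ccl2, the chemokine that recruits CCR2-bearing monocytes, read 2.71, 2.20 and 6.84 CPM at day 2 and 7.76, 4.70 and 8.52 at day 14 with overlap and did not pass (adjusted p = 0.348). Its day 14 level was above the untreated 0.109, 0.0476 and 0.125 CPM (log2 fold change 6.32, adjusted p = 0.000148). Of 37 interferon response genes 3 rose and none fell. Mx1, an antiviral GTPase, read 0.204, 0.507 and 0.730 CPM at day 2 and 9.02, 9.29 and 1.96 at day 14 (log2 fold change 3.84, SE 0.86, adjusted p = 0.00959; 4.48 without replicate 3 of day 2). The others were Ifi44 and Xaf1 (log2 fold changes 1.88 and 1.78). Ifi44 lost the call without replicates 1 or 3 of day 2 or replicate 1 of day 14 (adjusted p = 0.0607 to 0.122; log2 fold changes were 2.47 and 1.199 without replicate 2 of day 2 or replicate 1 of day 14 in turn). Xaf1 lost it without any 1 of the 6 libraries (adjusted p = 0.0552 to 0.113).

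Some stress genes fell. Of 34 genes of oxidative stress and the unfolded protein response, 9 fell and 2 rose, with a median of -0.67, and 5 fell without replicate 1 or 2 of day 14. Txnrd1, thioredoxin reductase, read 63.6, 30.1 and 27.7 CPM at day 2, 10.97, 11.4 and 12.8 at day 14 and 18.8, 26.7 and 16.4 untreated (log2 fold change -1.79, SE 0.33, adjusted p = 0.00237). Gsr, glutathione reductase, read 57.2, 65.6 and 43.7 CPM at day 2, 23.7, 24.6 and 16.2 at day 14 and 38.6, 43.8 and 47.0 untreated (log2 fold change -1.37, SE 0.25, adjusted p = 0.00255). Gsr was below untreated at day 14 too (log2 fold change -1.01, adjusted p = 0.0483). Srxn1, which repairs peroxiredoxins, was at its highest in replicate 2 of day 2, at 25.5, 224 and 15.4 CPM against 8.59, 5.39 and 4.57 at day 14. The log2 fold change of -3.83 (adjusted p = 0.0027) was -1.72 without that library. Psat1, of serine synthesis, read 27.0, 57.3 and 33.8 CPM at day 2 and 4.38, 3.16 and 12.1 at day 14 (log2 fold change -2.58, SE 0.63, adjusted p = 0.0151). Psat1 lost the call without replicate 2 of day 2 or replicates 1 or 2 of day 14 (adjusted p = 0.0552 to 0.0702; the log2 fold change was -3.37 without replicate 3 of day 14). Shmt2, of mitochondrial folate metabolism, rose from 8.72, 3.38 and 9.46 CPM at day 2 to 42.6, 29.2 and 29.6 at day 14 (log2 fold change 2.20, SE 0.39, adjusted p = 0.00203). Herpud1, of the unfolded protein response, was the other gene that rose (log2 fold change 1.32, adjusted p = 0.0154). Herpud1 lost the call without replicate 3 of day 2 or replicate 3 of day 14 (adjusted p = 0.0612 and 0.0627). Of 30 immediate early genes, 4 fell and none rose, and 1 of the 4, Myc, passed in all fits with a library left out. Myc, a growth regulator, read 19.9, 59.7 and 24.6 CPM at day 2 and 3.04, 2.03 and 6.68 at day 14 (log2 fold change -3.14, SE 0.54, adjusted p = 0.00153; -2.50 without replicate 2 of day 2 and -3.76 without replicate 3 of day 14). The early response genes Ier3, Klf6 and Btg2 were the others (log2 fold changes -1.97, -1.47 and -2.03). Ier3 lost its call without replicate 2 of day 2 or replicates 1 or 2 of day 14 (adjusted p = 0.131 to 0.31; the log2 fold change was -1.04 without replicate 2 of day 2). Klf6 lost it without replicate 2 of day 2 or replicates 1 or 2 of day 14 (adjusted p = 0.143 to 0.172; the log2 fold change was -2.08 without replicate 3 of day 14). Btg2 lost it without any library but replicate 3 of day 2 (adjusted p = 0.0765 to 0.213; the log2 fold change was -1.42 without replicate 2 of day 2). Of 24 p53 and arrest genes, Cdkn1a and Trp53inp1 fell and none rose (4.74% of all genes fell and 4.68% rose). Trp53inp1 overlapped between the times (log2 fold change -1.26, adjusted p = 0.0359). Trp53inp1 lost the call without any library but replicate 1 of day 2 (adjusted p = 0.0689 to 0.137).

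A last set of genes passed both against day 2 and against untreated kidney, comparisons that share the day 14 libraries. Among those below both groups was Itgb6, the integrin beta 6 chain that activates TGF-beta on epithelium, at 168, 315 and 211 CPM at day 2, 46.5, 46.9 and 44.6 at day 14 and 134, 153 and 146 untreated. Its day 14 libraries were nearly identical and far under all others (log2 fold change -2.33, SE 0.24, adjusted p = 2.23e-05; against untreated -1.65, adjusted p = 0.00105). Plod2, a collagen lysyl hydroxylase, read 74.3, 62.4 and 51.4 CPM at day 2, 14.7, 12.5 and 12.3 at day 14 and 21.9, 52.5 and 31.8 untreated (log2 fold change -2.25, SE 0.30, adjusted p = 0.000206). Igsf11, an adhesion molecule, read 122, 149.9 and 86.6 CPM at day 2, 32.7, 43.9 and 30.7 at day 14 and 85.4, 125 and 65.1 untreated (log2 fold change -1.74, SE 0.32, adjusted p = 0.0027). Stra6l, a homologue of the retinol-binding protein receptor, read 24.1, 24.2 and 51.2 CPM at day 2, 4.34, 3.73 and 4.65 at day 14 and 14.8, 15.7 and 6.58 untreated (log2 fold change -2.97, SE 0.37, adjusted p = 9.02e-05). In all 4 no day 14 library reached either other group.

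Among genes above both groups, beside those given earlier such as Mmp2, Serping1, Mgp, Cdh11, H2-Aa and Cd74, were the axon guidance gene Sema3d, the sodium channel Scn7a, the protease inhibitor Serpine2 and the fibrinogen-like Fgl2. Sema3d read 0.0408, 0 and 0.231 CPM at day 2, 18.6, 8.47 and 6.97 at day 14 and 0.870, 2.85 and 1.63 untreated (log2 fold change 6.69, adjusted p = 7.62e-05). For Sema3d the log2 fold change was 6.04 and 8.17 without replicates 1 or 3 of day 2 in turn. Serpine2 read 0.306, 0 and 0.423 CPM at day 2, 9.19, 4.70 and 26.9 at day 14 and 0.544, 1.05 and 0.877 untreated (log2 fold change 5.48, adjusted p = 0.000222; 4.52 without replicate 3 of day 14). Fgl2 read 0.408, 0.676 and 0.423 CPM at day 2, 8.33, 17.4 and 9.90 at day 14 and 1.30, 2.28 and 2.88 untreated (log2 fold change 4.65, adjusted p = 0.000211). Scn7a read 0.122, 0.676 and 0.0384 CPM at day 2, 10.2, 9.20 and 13.6 at day 14 and 3.04, 1.88 and 2.44 untreated (log2 fold change 5.97, adjusted p = 5.63e-05). For Scn7a the log2 fold change was 6.91 and 5.33 without replicates 2 or 3 of day 2 in turn.

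Partly regained genes lay above day 2 and below untreated. Gatm, which makes the creatine precursor in proximal tubule, read 37.0, 26.7 and 16.8 CPM at day 2, 288, 265 and 103 at day 14 and 573, 604 and 719 untreated, with no overlap among the 3 groups (log2 fold change 3.02, SE 0.39, adjusted p = 0.00014; against untreated -1.53, adjusted p = 0.0433). Acmsd, of tryptophan breakdown towards NAD, read 8.32, 9.46 and 12.9 CPM at day 2, 27.8, 35.2 and 18.5 at day 14 and 91.3, 65.6 and 80.3 untreated (log2 fold change 1.41, SE 0.31, adjusted p = 0.00918; against untreated -1.54, adjusted p = 0.0137). Genes below day 2 and still above untreated included Spp1, Lcn2, Clu, Clcf1, Sox9, C3 and C4b, given above, and Gc. Gc, the vitamin D binding protein, read 114, 108 and 70.0 CPM at day 2, 8.80, 13.0 and 37.1 at day 14 and 5.11, 2.21 and 3.76 untreated (log2 fold change -2.31, SE 0.43, adjusted p = 0.00289; -3.16 without replicate 3 of day 14).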

How the data were processed

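The deposited tables hold, per the labels and from the values, whole-number read counts per gene for 37991 mouse gene identifiers in each of 18 libraries made from 10 ng of total RNA with amplification by the NuGEN kit. Per the submitters' processing notes, the authors used cutadapt, TopHat2 2.07, the build NCBIM 37, HTSeq and DESeq; the strand setting and annotation release are not given in the sources used here, so reads of overlapping or antisense genes and of near-identical copies may be assigned to either gene. The 5 HTSeq tally rows, 34.5% to 51.3% of all rows' reads per library, were left out. Symbols came from the reference tables, which named 32919 identifiers and left 5072 without a symbol.

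Counts as deposited were scaled by TMM and fitted with edgeR 4.0.16 (R 4.3.3) by the quasi-likelihood test in 1 model of 6 groups of 3 libraries over all 18, after filterByExpr left 16824 genes. P-values were adjusted by the Benjamini-Hochberg method over all of these, with 0.05 as the threshold. SE was the absolute log2 fold change over the root of the F statistic. CPM used the TMM-scaled totals of reads in the 16824 genes left by the filter. Where a group had no read, a bound was taken from a floor of 3 counts over the group; bounds cover counting error only. The script was tested on simulated data. No library pair agreed within sampling noise (chi-square per degree of freedom of at least 41.7 within a group).

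The comparison, its 29 lists (1085 entries, 1075 found, 980 tested) and the rule for named genes were chosen with earlier results of these data known. Named were the 8 largest changes each way without overlap and with a higher group averaging 10 CPM or more, up to 4 passing members of each list each way with at least 5 CPM, up to 6 genes for each combination of directions against day 2 and untreated kidney, and a panel of 14. Other list members given (Fgg, Fgb, Vcam1, Cd44, Vim, Anln, Prc1, Ccnb2, Slc22a7, Pck1, G6pc, Miox, Lrp2, Cubn, Calb1, Aqp2, Nccrp1, Hnf4a, Cpt1a, Col3a1, Col1a2, Fn1, Acta2, Lyz2, Ccr2, Cd68, Cd209a, C8a, C1s1, Igkc, Ccl12, Cxcl14 and Ccl2) were chosen after their values were seen. Some genes that the rule picks are not reported here. Promoters are RefSeq sequences of GRCm38.p6, not the build of the counts. Replicate numbers did not pair the libraries (correlations of same-numbered deviations of 0.022, 0.0064 and 0.0080). Alternatives were limma 3.58.1 (voom), DESeq2 1.42.0, other scalings and filters, a fit to 6 libraries, a replicate block and each library left out.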

Additional observations from a re-analysis of the deposited data

How the results depend on the processing

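For day 14 against day 2, DESeq2 passed 2502 genes (1258 higher and 1244 lower), limma-voom 998 (522 and 476), the 6 libraries alone 325 (229 and 96), library totals alone 486 lower genes, and the fit without replicate 2 of day 2 and replicate 3 of day 14 859 (473 and 386). Leaving out 1 library gave 865 to 1434 genes, 461 to 676 higher and 322 to 855 lower. For day 14 against untreated kidney, DESeq2 passed 923 genes (627 and 296) and library totals alone 435 (417 and 18), and leaving out 1 library gave 106 to 351, 82 to 285 higher and 9 to 66 lower. For day 2 against untreated kidney, library totals alone passed 651 lower genes, and leaving out 1 library gave 1453 to 2005, 674 to 1207 higher and 716 to 798 lower. DESeq2's size factors in edgeR (1590 genes), a filter of at least 1 CPM in 3 libraries (1617), no filter (1679) and leaving out mitochondrial genes (1590) stayed within 1.5 times of the 1586 genes. The fits with fewer libraries have fewer samples behind them, and the other causes were not tested.

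The fit with a replicate block passed 1235 genes for day 14 against day 2 (646 higher and 589 lower), 193 against untreated kidney and 1895 for day 2 against untreated. The numbers do not pair the libraries, and 12 of 129 genes chosen by the naming rule missed the threshold there. Of the same 129, 60 missed it in the fit to the 6 libraries, 25 with limma-voom, 15 with library totals alone, 32 without replicate 2 of day 2 and 14 to 29 without another library. Of 128 named genes that passed, 85 passed with each of the 6 libraries left out in turn and 43 did not. Over 2063 values of named genes under the alternatives run, 1782 kept direction and side of the threshold, 280 kept direction only, and 1 turned, the log2 fold change of Col1a1, which ran from -0.0074 without replicate 3 of day 14 to 1.17 without replicate 2 of day 14. Counting the tally rows as reads gave a mitochondrial difference of 4.46 percentage points (exact permutation test, p = 0.3). The largest shift of the median log2 fold change by another scaling was 0.06. Depth limits genes with few reads in replicate 2 of day 2, which held 8.68 M reads in genes.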
